A study of Mus musculus with 16 samples.

Results

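Cacna1e and 8 further genes for subunits of voltage-gated calcium channels (Cacna1a, Cacna1c, Cacna1d, Cacna1g, Cacna1h, Cacna2d1, Cacnb2 and Cacnb3) were followed in mammary adipose tissue of lean, obese and formerly obese mice. They are 9 of the 23179 genes listed, and they belong to a family of 26 subunit genes, all of which were listed. The members were picked by name, and Cacna1e leads because its level in obese mice was already known to stand out in these libraries. Its differences that involve DIO-HFD or CON-LFD are therefore a description and carry no test. The question put to the other members was whether they differed between the same groups.

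The samples were RNA-Seq libraries from female wild-type C57BL/6NCrl mice, 8 weeks old at purchase, with 4 mice in each of 4 groups. CON-LFD mice were lean and ate a low-fat diet (10% of energy from fat) throughout. The other mice became obese on a diet with 60% of energy from fat. After 15 weeks DIO-HFD mice stayed on that diet, DIO-LFD mice were switched to the low-fat diet, and DIO-VSG mice had vertical sleeve gastrectomy, which removes most of the stomach, and then ate the low-fat diet. All mice without gastrectomy had sham surgery, and every mouse, lean controls included, was injected in week 22 with E0771 mammary tumour cells in a mammary fat pad. The tissue is the fat pad of the opposite side, taken about 4 weeks later, so no group is free of tumour. Each library came from 1 numbered animal. A normalised count is the number of reads of a gene after scaling for library depth, and library depth ranged from 46907377 to 57610899 reads in genes.

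Voltage-gated calcium channels open when the cell membrane depolarizes and let calcium in, where it starts secretion, contraction or changes in transcription. The α1 subunit forms the pore and sets the channel type, an intracellular β subunit and an extracellular α2δ subunit bring the pore to the surface and tune its opening, and γ subunits are accessory. Cacna1e codes for the pore of the R-type channel, known mainly from neurons and endocrine cells, Cacna1a for the P/Q-type pore, Cacna1c and Cacna1d for L-type pores of heart, smooth muscle and endocrine cells, and Cacna1g and Cacna1h for T-type pores that open at low voltage.

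Cacna1e (ENSMUSG00000004110) lies on the minus strand of chromosome 1 at chr1:154390731-154884501 in GRCm38, and its longest coding transcript in GENCODE release M21 has 14921 bases. What the 6 pore members share, and where they split, can be seen in their coding sequence at the selectivity filter, where each of the 4 repeats of the pore places an acidic residue. Windows of 21 coding bases around that codon are given for repeats III and IV, from GENCODE M21 transcripts on GRCm38, 5′ to 3′ on the coding strand, with the codon of the acidic residue in capitals.
Cacna1e repeat III (chr1:154444874-154444894, minus strand): tctacagggGAAggatggcct
Cacna1a repeat III (chr8:84581329-84581349, plus strand): tccacaggaGAGggctggcca
Cacna1c repeat III (chr6:118656115-118656135, minus strand): tccaccttcGAAgggtggcca
Cacna1d repeat III (chr14:30100699-30100719, minus strand): tcaacttttGAGggctggccc
Cacna1g repeat III (chr11:94426462-94426482, minus strand): gcctccaagGATggctgggtt
Cacna1h repeat III (chr17:25383499-25383519, minus strand): tcatccaagGATggctgggta
Cacna1e repeat IV (chr1:154425978-154425998, minus strand): gccacggggGAGgcttggcag
Cacna1a repeat IV (chr8:84611602-84611622, plus strand): gccacaggaGAAgcgtggcac
Cacna1c repeat IV (chr6:118614053-118614073, minus strand): gccaccggaGAGgcctggcag
Cacna1d repeat IV (chr14:30075947-30075967, minus strand): gcaacagggGAAgcctggcag
Cacna1g repeat IV (chr11:94416418-94416438, minus strand): tccactggtGACaactggaat
Cacna1h repeat IV (chr17:25377774-25377794, minus strand): tccactgggGACaactggaat
In both repeats Cacna1e carries a glutamate codon (GAA or GAG), as do Cacna1a, Cacna1c and Cacna1d, while the T-type genes Cacna1g and Cacna1h carry an aspartate codon (GAT or GAC). Each window lies within a single exon.

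Cacna1e was highest in obese mice. Its normalised counts in DIO-HFD were 5155, 15847, 10736 and 4896 in replicates 1 to 4. In CON-LFD they were 892, 796, 2749 and 1132. The DIO-LFD libraries held 1929, 1336, 1856 and 1453, and the DIO-VSG libraries 2916, 2377, 2219 and 2163. All 4 DIO-HFD libraries lay above all 12 others, and replicates 2 and 3 lay well above replicates 1 and 4. Of all genes, 1.76% were higher in DIO-HFD than in CON-LFD without overlap, and Cacna1e belongs to them by the way it was chosen. CON-LFD replicate 3 stood above the other lean mice, inside the range of DIO-VSG.

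The group means were 9159 ± 5210 (SD, n = 4) in DIO-HFD, 2419 ± 343 in DIO-VSG, 1644 ± 293 in DIO-LFD and 1392 ± 915 in CON-LFD. On the log2 scale of the fit, log2(normalised count + 1), DIO-HFD lay 2.73 ± 0.39 (SE) above CON-LFD, a 6.63-fold difference. DIO-LFD lay 2.32 below DIO-HFD (log2 difference -2.32, 4.98-fold lower) and DIO-VSG lay 1.75 below it (-1.75, 3.37-fold lower), each with the same SE of 0.39. Neither weight-loss group differed in level from CON-LFD without overlap: DIO-LFD lay within the CON-LFD range, at a log2 difference of 0.41, and DIO-VSG was 0.98 higher with CON-LFD replicate 3 among its values. Without CON-LFD replicate 3 these differences were 0.80 and 1.37, and without the 4 libraries poor in B cell markers described further on they were 0.05 and 0.62. Without those 4 libraries DIO-HFD minus CON-LFD was 1.68, DIO-LFD minus DIO-HFD -1.63 and DIO-VSG minus DIO-HFD -1.06. With weights for library quality the last 3 values were 2.35, -1.69 and -1.13. These comparisons share the DIO-HFD or CON-LFD libraries.

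Cacna1e was chosen for its level in DIO-HFD, and only its difference between DIO-VSG and DIO-LFD was tested. Earlier results of these libraries were known at that choice, so this test may not be wholly free of it. Every DIO-VSG library held more Cacna1e than every DIO-LFD library. The log2 difference was 0.56 ± 0.39 (SE), with an adjusted p of 0.57 in limma with Benjamini-Hochberg adjustment over all 21218 genes tested, so it did not pass. Separation without overlap was common in this comparison, where 12.9% of all genes were higher in DIO-VSG without overlap. Over 28 other settings this log2 difference ran from 0.47 to 0.71 and its adjusted p in limma from 0.057 to 0.80. The lowest was that of the 8 DIO-VSG and DIO-LFD libraries fitted alone, where the SE was 0.15, so no setting passed. The SE of 0.39 comes from the spread in all 4 groups, that of 0.15 from the spread in those 8 libraries only.

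**Figure D1:**
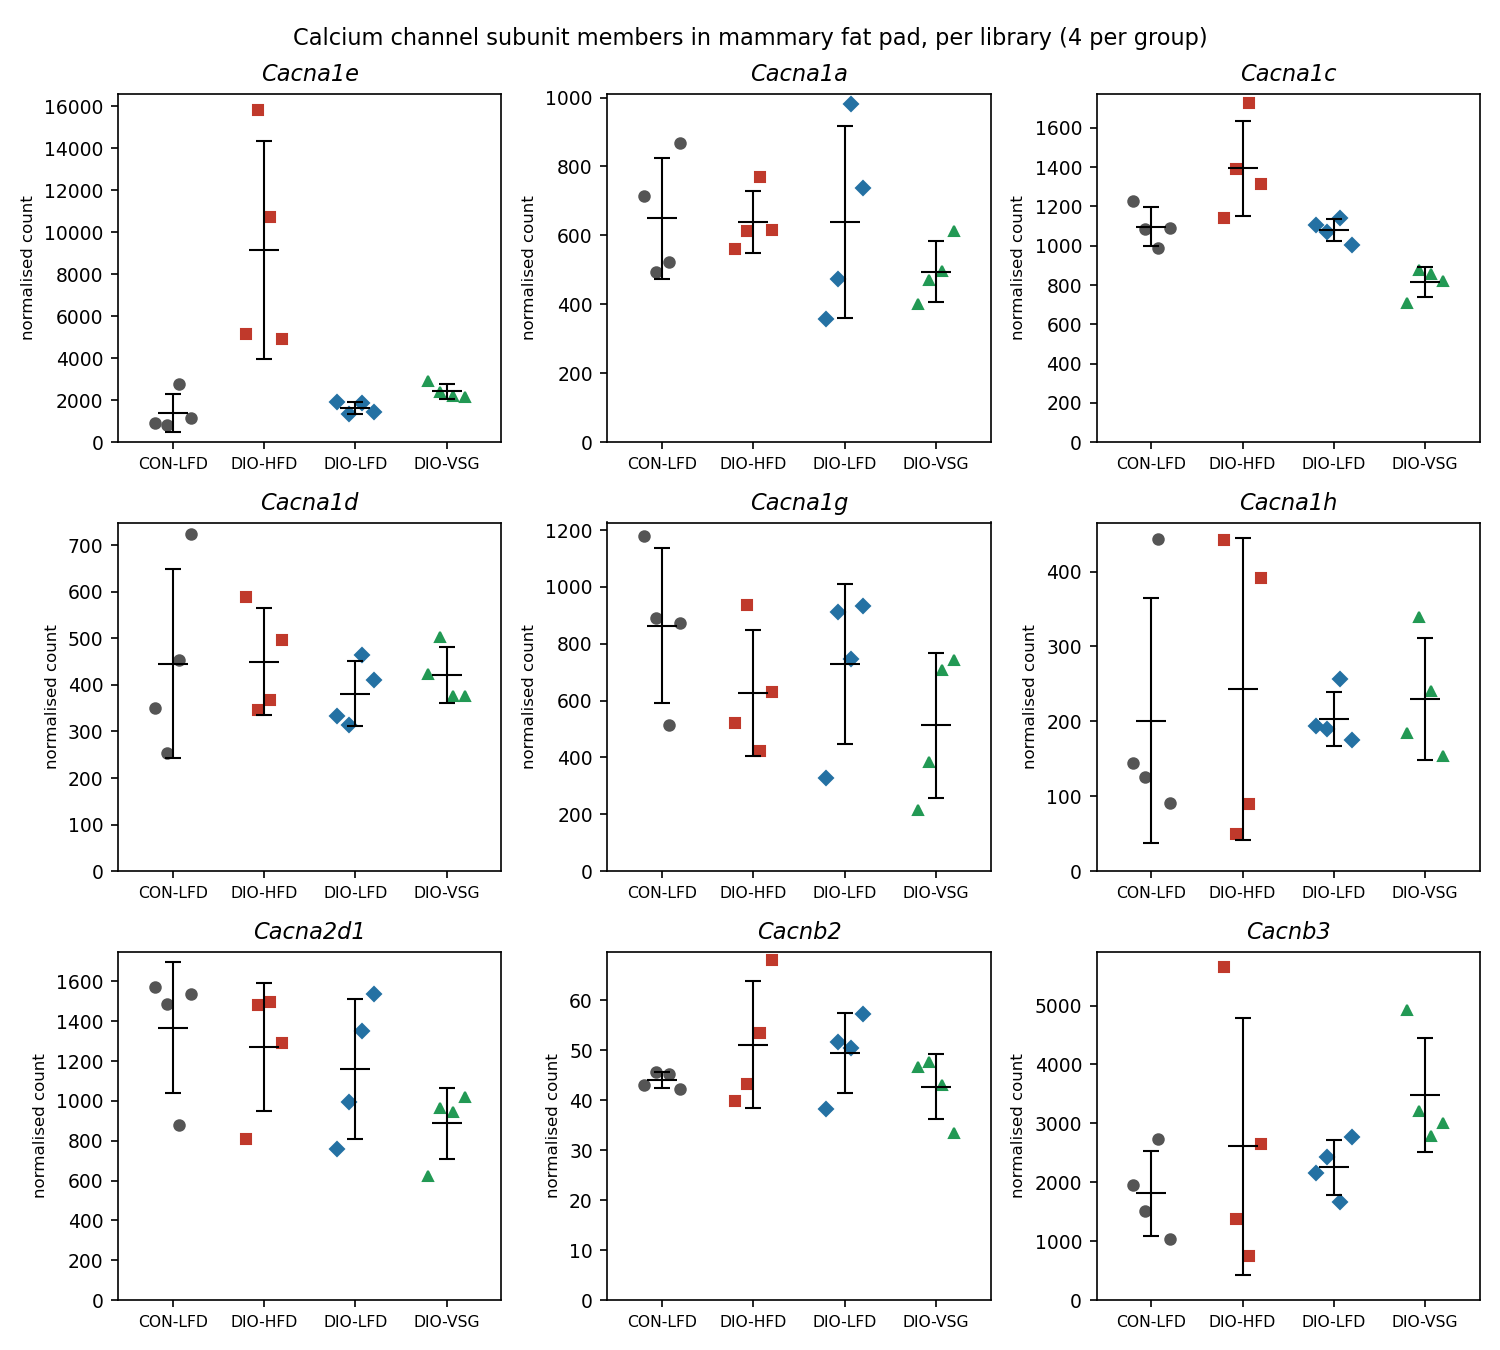
Normalised counts of the 9 member genes by group, 1 point per library, with the mean and SD (n = 4) as a bar and whiskers on axes that start at 0. Cacna1e separates all 4 DIO-HFD libraries from the rest, from 4896 upwards, and Cacna1c is lowest in the 4 DIO-VSG libraries, up to 878.

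In each of the other pore members the DIO-HFD and CON-LFD libraries overlapped. Cacna1a held 562, 612, 769 and 615 normalised counts in DIO-HFD and 713, 494, 524 and 868 in CON-LFD. Its DIO-LFD libraries held 358, 473, 981 and 739, and its DIO-VSG libraries 400, 470, 496 and 612. All 4 groups overlapped, and the log2 difference of DIO-HFD from CON-LFD was 0.01 ± 0.27 (SE). Cacna1d held 345 to 589 in DIO-HFD, 253 to 724 in CON-LFD, 314 to 465 in DIO-LFD and 376 to 504 in DIO-VSG. Its 6 log2 differences between groups ran from -0.22 to 0.15, each with an SE of 0.27.

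Cacna1c, the L-type pore of smooth muscle and heart, was lowest after gastrectomy. The DIO-VSG libraries held 706, 878, 856 and 820 normalised counts. DIO-HFD held 1142, 1393, 1724 and 1314, CON-LFD 1228, 1085, 988 and 1090, and DIO-LFD 1104, 1072, 1141 and 1004. All 4 DIO-VSG libraries lay below all 12 others, and all DIO-LFD libraries lay below all DIO-HFD libraries, although by only 1 normalised count at the nearest pair (1141 and 1142). Of all genes, 4.22% were lower without overlap in DIO-VSG than in DIO-HFD, 4.43% than in CON-LFD and 5.83% than in DIO-LFD, and 1.5% were lower in DIO-LFD than in DIO-HFD.

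None of the Cacna1c differences passed the adjusted threshold in limma in the model of all 16 libraries without weights, although 5 of the 6 had an unadjusted p under 0.05. DIO-VSG was 0.76 ± 0.12 (SE) lower than DIO-HFD on the log2 scale (-0.76, adjusted p = 0.24). It was also lower than CON-LFD (-0.43, adjusted p = 0.27) and lower than DIO-LFD (-0.41, adjusted p = 0.51). DIO-HFD was 0.33 higher than CON-LFD (adjusted p = 0.27). DIO-LFD was 0.35 lower than DIO-HFD (-0.35, adjusted p = 0.46). For DIO-VSG against DIO-HFD the adjusted p over the alternative settings ran from 0.00089, with weights for library quality, to 0.77. For DIO-VSG against DIO-LFD it ran from 0.035 to 0.80, and it was 0.035 when only the 8 libraries of the comparison were fitted and 0.044 with weights. For DIO-VSG against CON-LFD it ran from 0.0099 to 0.96 and for DIO-LFD against DIO-HFD from 0.036 to 0.77, with the lowest in both from the weights. For DIO-HFD against CON-LFD it ran from 0.10 to 0.73. The weights called many genes, 17.6% of all genes for DIO-VSG against DIO-HFD, 19.9% for DIO-VSG against CON-LFD, 8.54% for DIO-LFD against DIO-HFD and 0.867% for DIO-VSG against DIO-LFD, and fitting the 8 libraries alone called 7.22% in that last comparison. Summed smooth muscle markers, 7 genes such as Acta2 and Myh11, came to 30850 to 40326 normalised counts in DIO-VSG, against 47212 to 70747 in DIO-HFD, 40198 to 70323 in CON-LFD and 27130 to 56860 in DIO-LFD. Summed endothelium markers (6 of 6 listed) came to 36233 to 37433 in DIO-VSG, against 41886 to 67433 in DIO-HFD, 36667 to 49502 in CON-LFD and 36773 to 74905 in DIO-LFD. Over the 16 libraries Cacna1c had r = 0.65 and rho = 0.72 with the endothelium score and r = 0.47 and rho = 0.46 with the smooth muscle score. With the macrophage score it had r = 0.49 and rho = 0.49, and with the adipocyte score r = 0.42 and rho = 0.44. It had r = -0.64 and rho = -0.55 with the T cell score and r = -0.55 and rho = -0.55 with the B cell score. With the remaining lists r ran from -0.35 to 0.31. The part of these cell types in the Cacna1c difference was not tested. In bulk tissue, fewer cells of a type and less RNA per cell cannot be told apart.

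The T-type members overlapped between all groups. Cacna1g held 521, 936, 425 and 629 normalised counts in DIO-HFD, 1179, 892, 513 and 872 in CON-LFD, 326, 912, 747 and 934 in DIO-LFD, and 215, 384, 709 and 742 in DIO-VSG. Its largest log2 difference was -0.86 ± 0.43 (SE) for DIO-VSG against CON-LFD, with an adjusted p of 0.30 in limma. Across the 16 libraries Cacna1g had a Pearson r of 0.73 and a Spearman rho of 0.81 with the mean level of 8 mammary epithelium markers, given as a description. This was its highest r with any marker list. The smooth muscle score followed with r = 0.65 and rho = 0.71, and the stromal fibroblast score with 0.56 and 0.46. Cacna1h held 442, 50, 89 and 391 in DIO-HFD and 145, 125, 444 and 90 in CON-LFD. It held 175 to 256 in DIO-LFD and 153 to 339 in DIO-VSG. Its DIO-HFD values fell into a high pair (replicates 1 and 4) and a low pair (replicates 2 and 3), opposite to Cacna1e.

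Of the accessory members, Cacna2d1, an α2δ subunit that binds gabapentin, held 810, 1480, 1499 and 1291 normalised counts in DIO-HFD and 1573, 1486, 878 and 1534 in CON-LFD. Its DIO-LFD libraries held 759, 993, 1348 and 1537, and its DIO-VSG libraries 624, 962, 946 and 1019. DIO-VSG was lower than CON-LFD by a log2 difference of -0.61 ± 0.27 (SE) in limma (adjusted p = 0.27), with CON-LFD replicate 3 inside the DIO-VSG range. Over the alternative settings this adjusted p ran from 0.031, with library quality weights, to 0.97. With those weights Cacna2d1 was also lower in DIO-VSG than in DIO-HFD (-0.55, adjusted p = 0.034 in limma). The weights called 19.9% of all genes for DIO-VSG against CON-LFD and 17.6% for DIO-VSG against DIO-HFD. Cacnb2, a β subunit of heart, stayed between 33 and 68 in all 16 libraries, with log2 differences from -0.24 to 0.18. With library quality weights it was 0.57 higher in DIO-HFD than in CON-LFD (adjusted p = 0.035 in limma) and lower in DIO-VSG than in DIO-HFD (-0.63, adjusted p = 0.012), where that setting called 19.8% and 17.6% of all genes.

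Cacnb3, a β subunit of neurons and lymphocytes, held 5656, 1383, 742 and 2653 in DIO-HFD and 1959, 1520, 2731 and 1042 in CON-LFD. It held 2163, 2428, 1663 and 2762 in DIO-LFD and 4921, 3210, 2781 and 3013 in DIO-VSG. All 4 DIO-VSG libraries lay above all CON-LFD libraries, as did 2.59% of all genes, and above all DIO-LFD libraries, as did 12.9%. The log2 differences were 0.99 ± 0.48 (SE) and 0.61 ± 0.48, with adjusted p of 0.29 and 0.59 in limma.

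**Figure D2:**
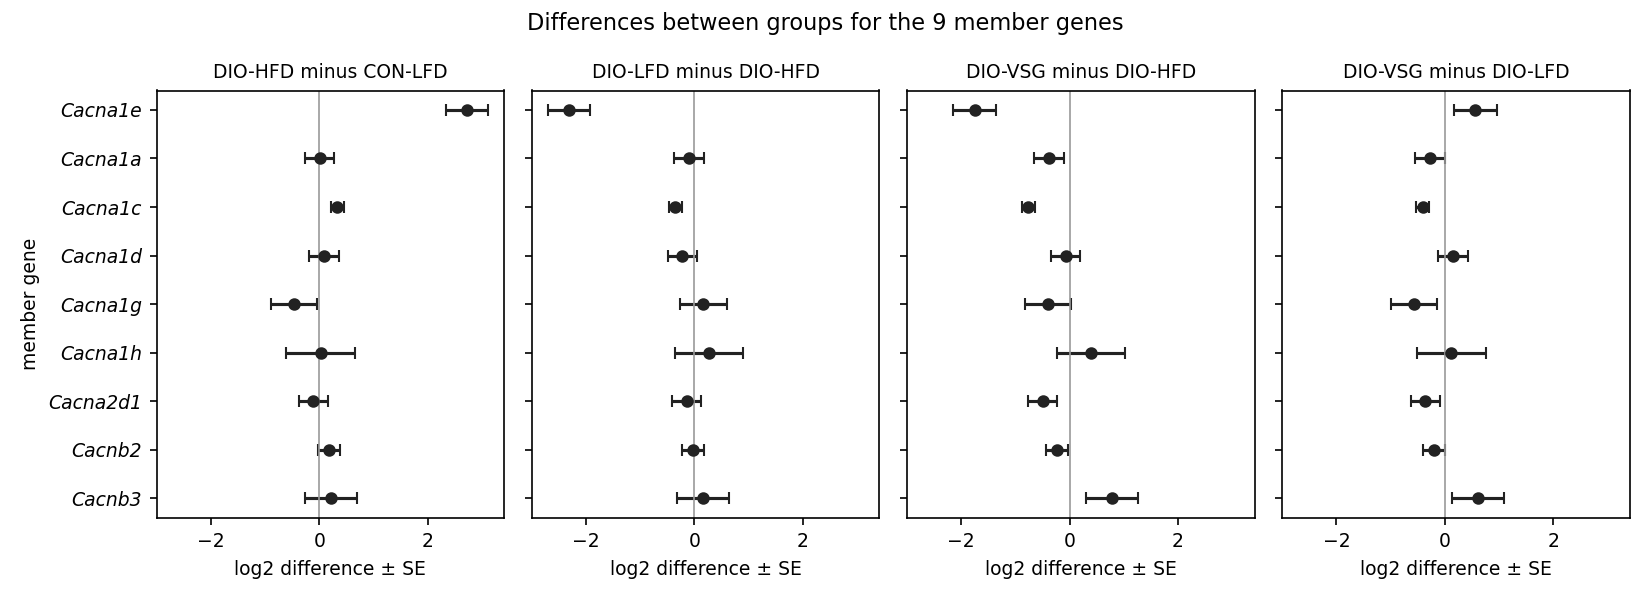
The log2 difference (x axis, with SE as whiskers) of each of the 9 members in 4 of the 6 comparisons; points right of 0 are higher in the first group named. Cacna1e lies at 2.73, -2.32 and -1.75 in the 3 comparisons that involve DIO-HFD, while the other 8 members lie between -0.76 and 0.78 in them.

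All 9 members passed the filter on low values, at least 10 normalised counts in at least 4 libraries. None of the 8 other members passed an adjusted p of 0.05 in any of the 6 comparisons, and none of the 22 other subunit genes that could be tested did so either. Few genes of any kind passed. For DIO-HFD against CON-LFD 0.0377% of all genes did, for DIO-LFD against CON-LFD 0.00471%, and for the remaining 4 comparisons 0%, so the count among the subunits cannot be read apart from this background. At an unadjusted p under 0.05 in limma, 2 of the 22 other subunit genes differed between DIO-HFD and CON-LFD (Cacna1c higher, Cacng4 lower), where 12.9% of all genes did. The same count was 1 for DIO-VSG against DIO-HFD (13.2% of all genes), 1 for DIO-LFD against DIO-HFD (8.53%), 1 for DIO-VSG against DIO-LFD (9.7%), 4 for DIO-VSG against CON-LFD (17.8%) and 0 for DIO-LFD against CON-LFD (6.26%). By limma voom on the recovered reads none passed the adjusted threshold in any comparison. The median log2 difference of the 22 genes between DIO-HFD and CON-LFD was 0.02, the 8 other members had a median of 0.05, and all genes tested had 0.02.

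Levels of different genes were compared per kilobase of the longest coding transcript. In DIO-HFD Cacna1e reached 614 ± 349 (SD, n = 4) normalised counts per kb, rank 2 of the 26 subunit genes after Cacnb3 at 954 ± 798. That order rests on DIO-HFD replicate 1, where Cacnb3 reached 2069 per kb. Without it Cacna1e averaged 703 and Cacnb3 583, and in replicates 2 and 3 Cacna1e lay above Cacnb3, at 1062 against 506 and 720 against 271. In CON-LFD it had 93.3 ± 61.4 (rank 5), in DIO-LFD 110 ± 19.7 and in DIO-VSG 162 ± 23.0 (rank 4 in each). With 1 library left out the rank ran from 4 to 8 in CON-LFD, from 4 to 5 in DIO-LFD and from 3 to 4 in DIO-VSG, the 8 being without CON-LFD replicate 3. Among the members, the next pore genes in DIO-HFD were Cacna1c at 106 ± 18.6, Cacna1a at 80.7 ± 11.4 and Cacna1g at 74.9 ± 26.5 per kb. These overlapped each other. The pore gene Cacna1i, which is not a member, lay between Cacna1c and Cacna1a at 97.1 ± 113 per kb. Cacng7, a γ subunit, and Cacnb3 were the most abundant accessory genes, at averages of 383 and 929 per kb over the 16 libraries.

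Among the 10 pore genes, Cacna1e supplied 35.6%, 74.9%, 67.6% and 38.1% of the summed level per kb in DIO-HFD replicates 1 to 4. It was the first of the 10 in each of those libraries. Its share was 12.1%, 14.9%, 26.6% and 12.9% in CON-LFD, 30.8%, 17.3%, 20.1% and 12.1% in DIO-LFD, and 33.5%, 23.7%, 22.8% and 23.5% in DIO-VSG. It came first in 1 CON-LFD library, 2 DIO-LFD libraries and 1 DIO-VSG library. With all annotated exons as the length, its mean DIO-HFD share was 48.5% in place of 54.1%, and it came first in 3 of the 4 libraries. By that length it came first in 0 CON-LFD libraries, 1 DIO-LFD library and 0 DIO-VSG libraries.

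**Figure D3:**
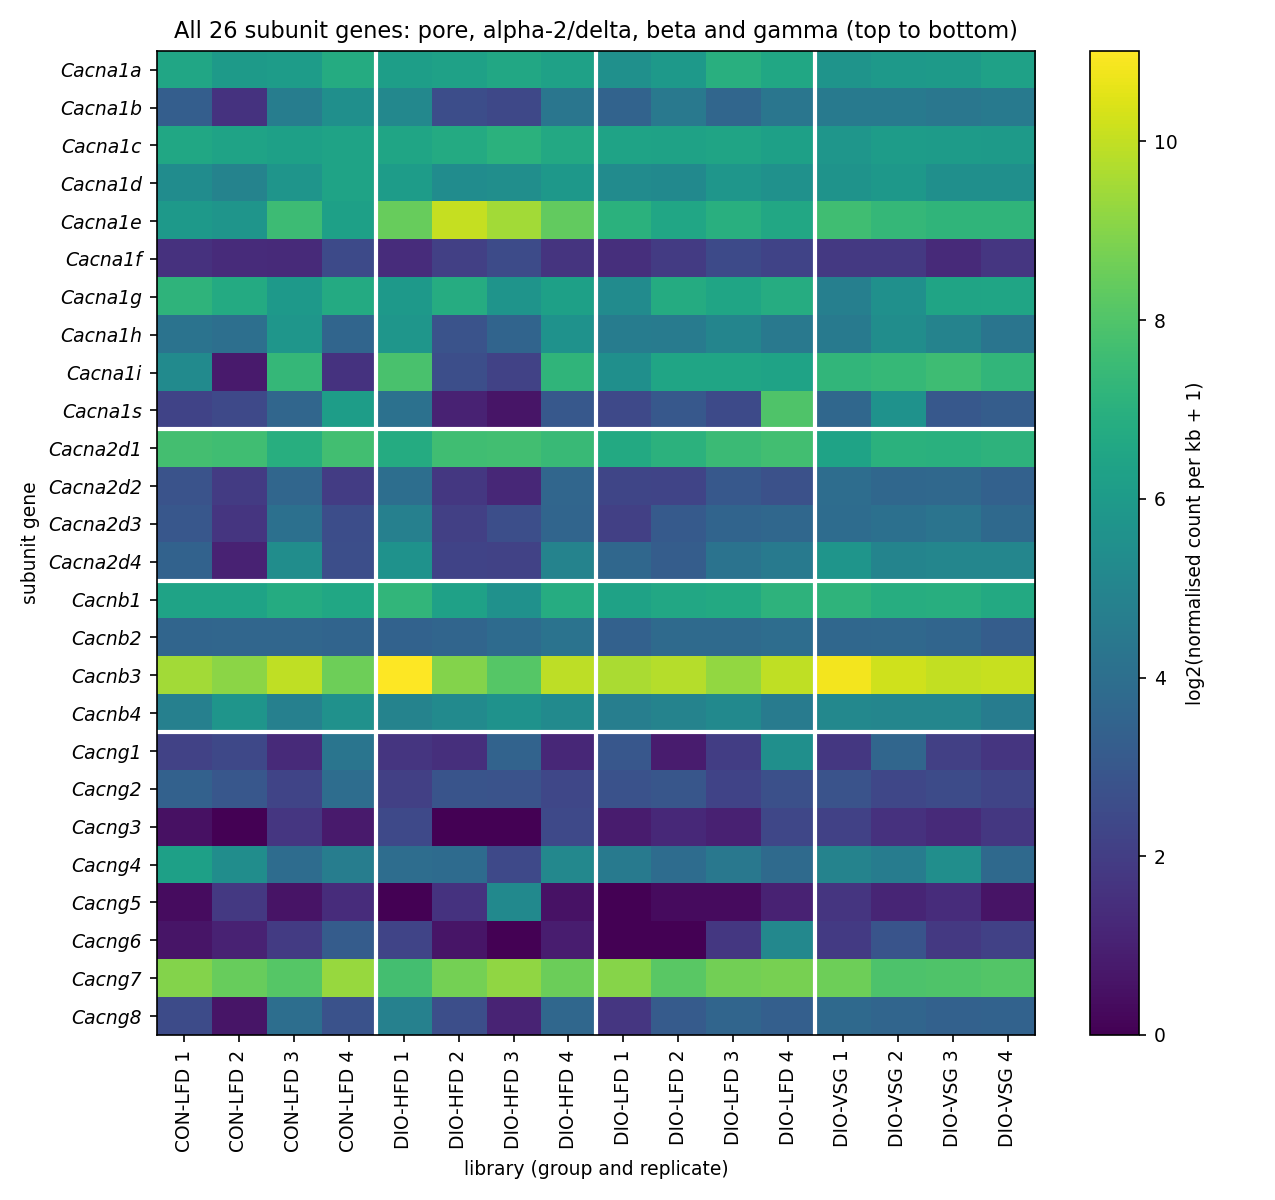
Level of all 26 subunit genes in each of the 16 libraries, coloured by log2(normalised count per kb + 1), with white lines between groups and between pore, α2δ, β and γ subunits. Cacna1e is the brightest pore gene in the 4 DIO-HFD libraries, and Cacnb3 and Cacng7 are bright in every group.

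The libraries differed widely in lymphocyte content, and part of the family moved with it. Summed B cell markers (8 genes, all listed, among them Ms4a1 and Cd79a) came to 258 to 64617 normalised counts in CON-LFD, 976 to 85937 in DIO-HFD, 15372 to 34998 in DIO-LFD and 59262 to 68812 in DIO-VSG. They were lowest in CON-LFD replicates 2 and 4 and DIO-HFD replicates 2 and 3, at no more than 2933. Summed T cell markers were lowest in the same 4 libraries, at 1174 to 2109, against 6989 or more in the rest. The sources used here do not say whether lymph nodes were removed.

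Among 23 subunit genes tested, 6 had a Pearson r of at least 0.8 with the B cell score, the mean log2 level of those markers, where 8.93% of all genes did. They were Cacna1i, Cacna2d2, Cacna2d3, Cacna2d4, Cacnb3 and Cacng8. Cacna1i, a T-type pore gene outside the members, had r = 0.99 and rho = 0.96. It held 2277 and 1435 normalised counts in DIO-HFD replicates 1 and 4 and 52 and 34 in replicates 2 and 3. Cacnb3 had r = 0.83 and rho = 0.90, and Cacna1h 0.74 and 0.73. The values were not particular to B cells. With the T cell score r was 0.97 for Cacna1i, 0.95 for Cacna2d2, 0.86 for Cacna2d3 and 0.96 for Cacna2d4. It was 0.91 for Cacnb3, 0.84 for Cacng8 and 0.78 for Cacna1h. Only Cacna1i and Cacng8 had a higher r with the B cell score. With the adipocyte score the same 6 genes had r from -0.90 (Cacna2d3) to -0.74 (Cacna2d4). These correlations are over 16 libraries that share groups and are descriptions.

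Cacna1e had r = 0.00 and rho = 0.36 with the B cell score over the 16 libraries, and that value rests on DIO-HFD replicates 2 and 3. Without them r was 0.71 and rho 0.85, and the T cell score gave 0.77 and 0.85. Other lists moved with the same exclusion, as given further on. When the model took the B cell score as a further term, the log2 differences of Cacna1e were 2.75 for DIO-HFD minus CON-LFD, -2.30 for DIO-LFD minus DIO-HFD and -1.72 for DIO-VSG minus DIO-HFD. The DIO-HFD libraries with the fewest B cell markers, replicates 2 and 3, held the most Cacna1e. Among the 4 libraries poor in B cell markers, DIO-HFD held 10736 and 15847 and CON-LFD 796 and 1132 normalised counts, a log2 difference of 3.78. Among the rest, DIO-HFD held 4896 and 5155 and CON-LFD 892 and 2749, a log2 difference of 1.68. Each set has 2 DIO-HFD and 2 CON-LFD libraries, and since Cacna1e was chosen for its DIO-HFD level the direction in both is fixed by that choice. Without the 4 libraries poor in B cell markers, a setting chosen after seeing the data, DIO-LFD lay 1.63 below DIO-HFD (-1.63) and DIO-VSG 1.06 below it (-1.06). Other marker lists were summed in the same way, and the macrophage score had r = 0.30 with Cacna1e, the adipocyte score -0.08, the endothelium score 0.35, the mammary epithelium score -0.57, the skeletal muscle score -0.46, the neuron score 0.19 and the neuroendocrine score 0.19. For T cells the value was -0.04, for smooth muscle -0.01, for Schwann cells -0.41 and for stromal fibroblasts 0.08. Without DIO-HFD replicates 2 and 3 these values were 0.12 for macrophages, -0.67 for adipocytes, -0.25 for endothelium, -0.74 for mammary epithelium, -0.39 for skeletal muscle, 0.65 for neurons and 0.31 for neuroendocrine cells. They were -0.22 for smooth muscle, -0.40 for Schwann cells and -0.03 for stromal fibroblasts, so the values for adipocytes, mammary epithelium and neurons were close in size to those for lymphocytes. The neuron list had 7 of 8 genes listed, Th being the exception, and the neuron markers summed to at most 979 normalised counts. Summed macrophage markers (8 of 8 listed) ran from 25611 to 28103 in DIO-HFD and from 8603 to 63506 in CON-LFD. With the macrophage score as that term the same 3 differences of Cacna1e were 2.63, -2.28 and -1.57. The part of the other cell types in the level of Cacna1e was not tested. Adipocyte markers, 8 of 8 listed, summed to 447252 to 1722290 over the 16 libraries. The labels also name E0771 as cell line, although the profiled fat pad is not the injected one.

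**Figure D4:**
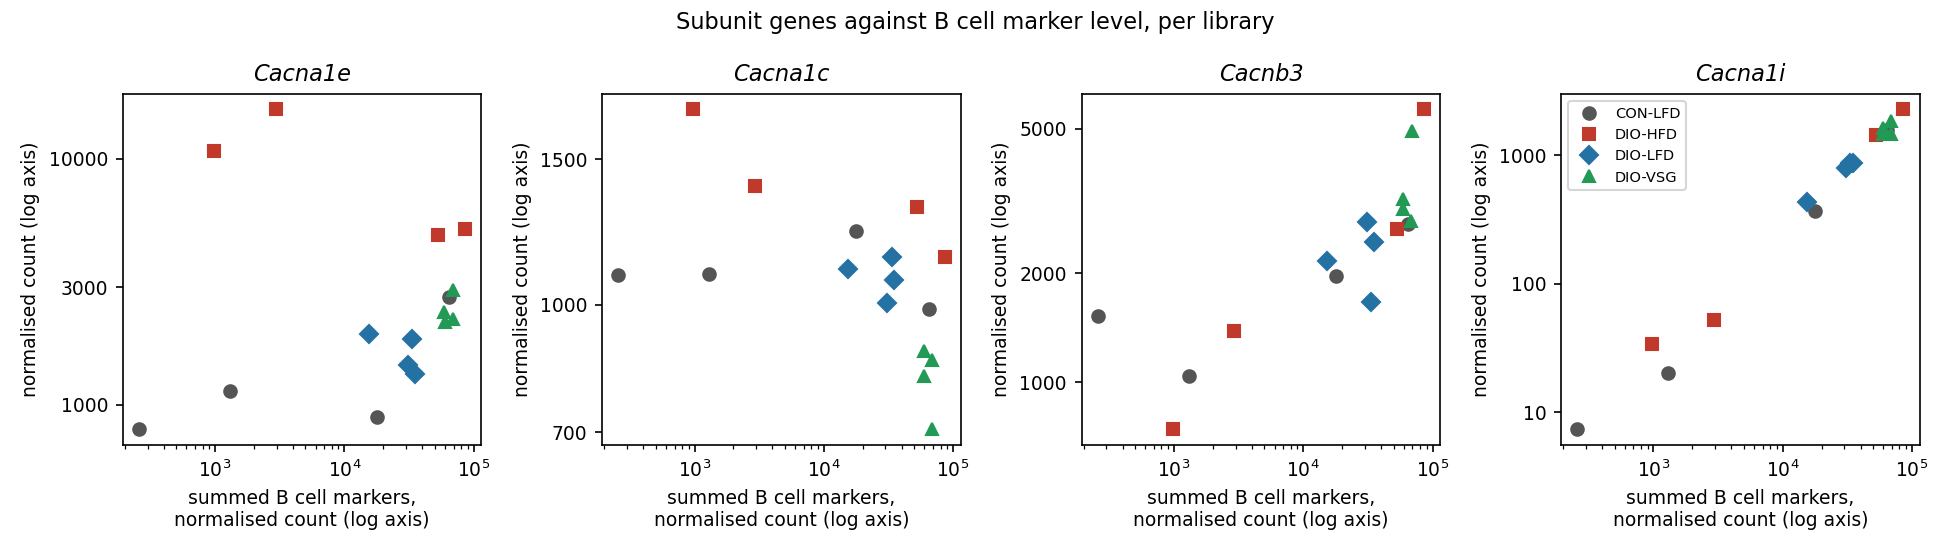
Normalised counts of Cacna1e, Cacna1c, Cacnb3 and Cacna1i (y axes, log scale) against summed B cell markers (x axes, log scale), 1 point per library, coloured by group. Cacna1i runs from 7 to 2277 along the B cell axis, whereas the 4 DIO-HFD points of Cacna1e lie above all others at both ends of it.

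The remaining subunit genes are given mainly by their range. Cacna1s, the L-type pore of skeletal muscle, held 1594 normalised counts in DIO-LFD replicate 4, 432 in CON-LFD replicate 4, 301 in DIO-VSG replicate 2 and at most 102 in the other 13 libraries. The same 3 libraries had the highest summed skeletal muscle markers, 157523, 35296 and 25742, against at most 6398 elsewhere. The skeletal muscle genes Cacng1 and Cacng6 were highest in DIO-LFD replicate 4 too, at 55 and 68. Cacng3, Cacng5 and Cacng6 did not pass the filter of 10 normalised counts in 4 libraries and were not tested. Cacng5 held 135 in DIO-HFD replicate 3 and at most 10 elsewhere. Cacna1f, the retinal L-type pore, ran from 9 to 28, and Cacna1b, the N-type pore of nerve endings, from 20 to 425 with overlap between all groups. Cacnb1 ran from 156 to 515, Cacnb4 from 190 to 436, Cacng2 from 18 to 78, and Cacng4 from 15 to 262. Cacng7 ran from 464 to 1398 and had r = 0.83 and rho = 0.83 with the adipocyte score.

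Genes that act on or with these channels were counted from lists. Of 8 channel modulators, all tested, and of 34 genes of calcium handling, of which 32 were tested, none passed the adjusted threshold in limma in any comparison. At an unadjusted p under 0.05 in either direction, 2 modulators and 4 handling genes stood out for DIO-HFD against CON-LFD, where 12.9% of all genes did. The counts were 2 and 6 for DIO-VSG against DIO-HFD (13.2% of all genes), 1 and 4 for DIO-LFD against DIO-HFD (8.53%), 2 and 2 for DIO-VSG against DIO-LFD (9.7%), 1 and 8 for DIO-VSG against CON-LFD (17.8%) and 1 and 2 for DIO-LFD against CON-LFD (6.26%). The median log2 differences were 0.21 and 0.12 for DIO-HFD against CON-LFD and -0.23 and -0.13 for DIO-VSG against DIO-HFD, and the median of all genes was 0.02 in both. The modulators with the smallest p were Rem1, a small GTPase that inhibits calcium channels (-0.85 for DIO-VSG against DIO-HFD, adjusted p = 0.27), Stac, an adaptor that aids channel traffic (-1.10 in the same comparison, adjusted p = 0.30), and Rrad, a GTPase like Rem1 (1.15 for DIO-HFD against CON-LFD, adjusted p = 0.27).

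Among the handling genes, Slc8a1, the sodium-calcium exchanger that extrudes calcium, held 494, 861, 1125 and 397 normalised counts in DIO-HFD. CON-LFD libraries held 195, 188, 284 and 292, DIO-LFD 354, 188, 358 and 323, and DIO-VSG 293, 304, 188 and 277. All DIO-HFD libraries lay above all others. Separation in the same direction was seen in 1.76% of all genes for DIO-HFD against CON-LFD. It was seen in 4.22% for DIO-VSG against DIO-HFD and in 1.5% for DIO-LFD against DIO-HFD. The log2 difference of Slc8a1 in DIO-HFD from CON-LFD was 1.49 ± 0.32 (SE), with an adjusted p of 0.14 in limma. Slc8a1 was named because it had the smallest p among the 32 handling genes tested. Atp2a3, a calcium pump of the endoplasmic reticulum in blood cells, was 1.19 higher in DIO-HFD than in CON-LFD (adjusted p = 0.14), with 1 overlapping pair of libraries, and Atp2b1, a calcium pump of the plasma membrane, was lower in DIO-VSG than in DIO-HFD (-0.36, adjusted p = 0.24).

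The genes whose pattern was most like that of Cacna1e were ranked by Pearson r over the 16 libraries among 21217 other genes. Ehd3, a protein of endosome recycling, came first with r = 0.97 and rho = 0.95, and Dock8, a guanine nucleotide exchange factor of leukocytes, followed with 0.95 and 0.91. Mycbp2, an E3 ubiquitin ligase, had r = 0.90, Cdc42ep3, an effector of Cdc42, 0.89, and Ccdc61, a centrosome protein, 0.88. Slc8a1 had rank 7 with r = 0.88. Over the 16 libraries no other subunit gene had r above 0.44, the value of Cacna1c at rank 1872, a limit that changed when 2 libraries were left out.

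Since DIO-HFD libraries fix much of these values, the relation was also taken without the 2 libraries farthest from the median of Cacna1e, DIO-HFD replicates 2 and 3. There r was 0.94 for Ehd3, 0.92 for Dock8, 0.73 for Mycbp2, 0.72 for Cdc42ep3, 0.77 for Ccdc61 and 0.71 for Slc8a1. Subunit genes reached similar values there, with 0.82 for Cacna2d2 and Cacna2d4, 0.81 for Cacna1h, 0.75 for Cacng8, 0.73 for Cacnb3 and Cacna1i and 0.72 for Cacna2d3, while Cacna1c had -0.12. On deviations from the group means, which remove the differences between groups, Dock8 had r = 0.88, Ehd3 0.87, Acbd3 0.82, Orc4 0.80 and Ccdc61 0.79, the 5 highest. These genes were picked for their r, so it has no test. The lowest r belonged to Mrpl37, a mitochondrial ribosomal protein (-0.92), Mknk2, a kinase downstream of MAP kinases (-0.89), Rnf5, an E3 ligase of the endoplasmic reticulum (-0.88), Mpdu1 (-0.87) and Gpr108 (-0.87).

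Ehd3 held 4388, 6471, 7072 and 3092 normalised counts in DIO-HFD, 1334, 1235, 2609 and 1870 in CON-LFD, 2026, 1472, 2201 and 2222 in DIO-LFD, and 3126, 2672, 2142 and 2450 in DIO-VSG. Dock8 held 13463, 19254, 18508 and 9205 in DIO-HFD and 3411, 2872, 7710 and 4920 in CON-LFD. In both genes, as in Cacna1e, DIO-HFD replicates 2 and 3 were the highest of all libraries and CON-LFD replicate 3 the highest lean library. Their log2 differences of DIO-HFD from CON-LFD were 1.57 and 1.72, smaller than that of Cacna1e.

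**Figure D5:**
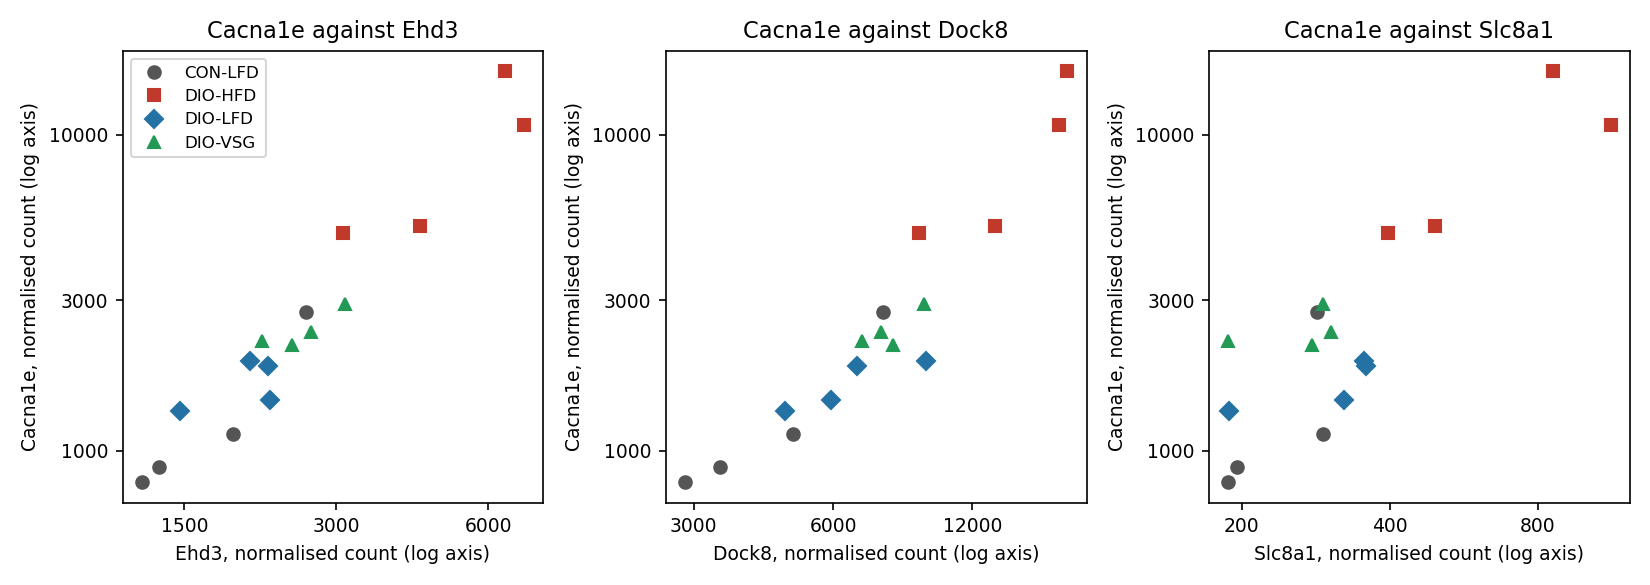
Normalised counts of Cacna1e (y axes, log scale) against Ehd3, Dock8 and Slc8a1 (x axes, log scale), 1 point per library, coloured by group. The points of Ehd3 and Dock8 lie near a line over the whole range of Cacna1e, 796 to 15847, and those of Slc8a1 scatter more below the DIO-HFD libraries.

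None of the 3 nearest listed genes on either side of Cacna1e had all DIO-HFD libraries above all others. The nearest listed genes lie 272780 bases below it (the long noncoding RNA A830008E24Rik) and 178946 bases above it (Gm9530), and no listed gene overlaps it. A830008E24Rik held 58 to 99 normalised counts in DIO-HFD and 85 to 323 in CON-LFD, the opposite direction, with a log2 difference of -1.16 and an adjusted p of 0.25 in limma. For Ier5, an immediate early gene 211860 bases above, the log2 difference was 0.65 (adjusted p = 0.32), and for Mr1, which presents metabolites to T cells, -0.29 (adjusted p = 0.51). Gm29291, Gm28286 and Gm9530 held 16 to 113 normalised counts in all libraries.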

How the data were processed

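The authors deposited 1 table of 23179 genes in 16 libraries (4 groups of 4 mice, total RNA, stranded, paired-end reads), and every column was matched to a sample by its animal number. Its values are on a log2 scale, from 5.36 to 21.85, and were made by the authors with the variance-stabilizing transformation of DESeq2. The sources differ on the upstream tools. The labels' processing notes name TopHat2 2.0.7, HTSeq 0.5.3p9 and mm10, whereas the study's methods name STAR and salmon with GENCODE annotation. The strand setting of the counting is not given in the sources used here.

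The transformation was inverted to normalised counts, which came out as whole reads after scaling in 100.0% of values (tolerance 0.01), with 46907377 to 57610899 reads per library. Depth is not limiting for the members, of which Cacnb2 had the lowest level. Names and coordinates came from GENCODE release 21 for mouse (M21, GRCm38), in which 22176 genes were found once.

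Group differences were fitted with limma 3.58.1 (R 4.3.3) on log2(normalised count + 1), in a single model of the 4 groups without covariates, for 21218 genes with at least 10 normalised counts in at least 4 libraries. P-values are two-sided, adjusted by Benjamini-Hochberg within each of 6 comparisons, and called at 0.05. They measure a difference against the spread between mice within groups. That spread was estimated from all 4 groups together, so each comparison also carries the spread of the groups it leaves out. The self-test on simulated data recovered the folds it was made with, in the median. It drew genes independently with the same spread in all groups. It therefore does not cover shifts shared by many genes, such as lymphocyte content, or groups of unequal spread. The alternatives were a pseudocount of 5, no filter, only the 8 libraries compared, quantile normalization, the deposited values, library quality weights, voom on the recovered reads, a replicate block, B cell or macrophage score covariates, each library left out, and 2 sets of libraries left out that were chosen after seeing the data.

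The members and lists were chosen with earlier results of these data known. The text names the 9 members, all other subunit genes, the 3 modulators and 3 calcium handling genes with the smallest p (none passed the adjusted threshold), 3 listed neighbours on each side of Cacna1e, the 5 highest and 5 lowest r to Cacna1e, and the 5 highest r of deviations from group means, predicted genes left out of both rankings. Markers of 12 cell types were summed per library. Replicate numbers do not pair mice across groups.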

Additional observations from a re-analysis of the deposited data

Results flagged for a closer look

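Across 92 sets of 4 libraries (23 subunit genes tested, in 4 groups), 8 held 1 library whose log2 level stood far from the other 3 by Dixon's criterion, where chance gives about 4.6. Among the members only Cacna2d1 was affected, in 2 groups. CON-LFD replicate 3 held 878 normalised counts of it against 1486 to 1573 in the other lean mice, and DIO-VSG replicate 1 held 624 against 946 to 1019. CON-LFD replicate 3 is also the lean library with the most Cacna1e and the most B cell markers.

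Among the remaining subunit genes, Cacna1i was low in DIO-LFD replicate 1, at 430 normalised counts against 801 to 872. Cacna1s was high in DIO-LFD replicate 4, at 1594 against 27.3 to 45.6. Cacna1f was low in DIO-VSG replicate 3, at 9.24 against 14.3 to 15.6. Cacna2d4 was high in DIO-VSG replicate 1, at 306 against 178 to 187, and so was Cacng7, at 837 against 548 to 583. Cacnb4 was low in DIO-VSG replicate 4, at 196 against 266 to 281.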

How the results depend on the processing

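The 6 log2 differences of Cacna1e kept their sign in all 168 refits over 28 alternative settings, but many of these refits could not move. Leaving out a library of a group not compared, dropping the filter, fitting the 8 libraries alone or adding the replicate block returns the same difference. The sign of the differences from DIO-HFD was also fixed by the way the gene was chosen, so the tally is no measure of robustness. With each library left out in turn, DIO-HFD minus CON-LFD ran from 2.41 to 3.12, DIO-LFD minus DIO-HFD from -2.56 to -1.99, DIO-VSG minus DIO-HFD from -1.99 to -1.43, DIO-VSG minus DIO-LFD from 0.47 to 0.65, DIO-VSG minus CON-LFD from 0.77 to 1.37 and DIO-LFD minus CON-LFD from 0.21 to 0.80. The values that moved by more than 1 SD between replicates (0.60) were those without the 4 libraries poor in B cell markers (1.68, -1.63 and -1.06 for the first 3 of these differences) and, with library quality weights, DIO-LFD minus DIO-HFD (-1.69) and DIO-VSG minus DIO-HFD (-1.13). The cause was not tested. Library quality weights called 2 of the other subunit genes in DIO-HFD minus CON-LFD (Cacnb2 and Cacng2), 3 in DIO-VSG minus DIO-HFD, 1 in DIO-LFD minus DIO-HFD, 1 in DIO-VSG minus DIO-LFD and 6 in DIO-VSG minus CON-LFD, where no weights gave 0 in each. The same weights called 4196 (19.8%), 3739 (17.6%), 1811 (8.54%), 184 (0.867%) and 4226 (19.9%) of all genes in these 5 comparisons. Fitting only the 8 libraries of DIO-VSG and DIO-LFD called 4 (Cacna1c, Cacna1i, Cacna2d2 and Cacna2d4) and 7.22% of all genes. The remaining settings called none in 3450 refits of these genes.

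The number of all genes called moved widely. For DIO-HFD minus CON-LFD, 8 in the main model, it was 4196 with library quality weights and 0 to 15 in the other settings that were not a single library left out. With 1 library left out it ran from 0 to 128, being 0 in 8 of 16 cases and 128 without CON-LFD replicate 3. For DIO-VSG minus CON-LFD, 0 in the main model, it was 4226 with weights and 873 without CON-LFD replicate 3. For DIO-VSG minus DIO-LFD, also 0, it was 1533 with only the 8 libraries and 184 with weights. Of 1344 refitted values of the 8 other members, 79 changed sign, each from a difference of at most 0.78 and at most 1.61 SE. The replicate block cannot move a group difference, because each replicate number occurs once in every group. The value for Cacna1e in DIO-HFD minus CON-LFD was therefore 2.73 with it as well. With this block 0 other subunit genes were called. Same-numbered samples correlated from -0.61 to 0.53 in their deviations, so the numbers pair nothing. Counting depth limits Cacng1, Cacng3, Cacng5, Cacng6 and Cacng8 most, which hold 0 or 1 reads in at least 1 library.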
